A study of Danio rerio with 6 samples.

Results

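The proteasome genes were followed in skeletal muscle of runzel larvae, a zebrafish line whose series title names a titin mutation, and of their wildtype siblings. Members were taken from the deposited table by symbol: every gene with a single platform symbol starting with psma, psmb, psmc, psmd, psme, psmf or psmg. This gave 50 of the 8793 named genes on the array. Of these, 48 encode proteasome subunits, activators, an inhibitor or assembly factors, read by 55 probe sets. The other 2, psmc3ip and psme3ip1, share the first letters of their symbols with the family but encode no subunit. They are described apart. Of the 59 genes with such symbols in the RefSeq gene table (assembly GRCz12tu), psma3, psma6b, psmb11a, psmb11b, psmd11a, psmd14, psme4a, psme4b and psmg4 are not analysed here.

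The runzel group comprised 3 arrays of homogenised trunk and tail muscle of mutants, and the sibling group 3 arrays of the same tissue of wildtype larvae. All larvae were taken when the phenotype first showed, labelled as 3.5 days after fertilization. Head, heart and gut were cut away before muscle was pooled, so each array reads several larvae. Markers of gut, liver and pancreas and of epidermis still gave signal on every array, so the samples were not muscle alone. From the gut, liver and pancreas list, for example, apoa1a averaged 60028 in runzel and 75551 in wildtype siblings. The study describes mutants and siblings of 3 clutches as matched by clutch, though no label links the numbering of arrays to clutches. Arrays with a common number are called a pair because their values deviate together, as the processing text describes.

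The 26S proteasome is the main protease of the cytosol and nucleus for proteins tagged with ubiquitin. Its 20S core is a barrel of outer alpha rings and inner beta rings, and some of the beta subunits cut the chain. The 19S particle caps the barrel. Its ATPase ring unfolds the substrate and opens the gate, and its lid removes ubiquitin. In muscle this system degrades myofibrillar proteins during atrophy, and its genes are known in mammals for being switched on together when proteasome activity is limiting.

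Signal here is the deposited linear intensity of 1 probe set on 1 array, and differences are runzel minus wildtype siblings on the scale log2(signal + 50), which understates the change of dim probe sets. Probe sets in the lowest 40 percent of mean log2 value were left out of the fits. Of the 48 genes, 43 passed that filter, with 49 probe sets. Among the 43, psme1 passed through its runzel level and psmb10 through its wildtype level, and 41 lay above the filter level in both groups. Each gene is represented by its brightest tested probe set unless stated. Signals of different probe sets are not compared with each other.

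Proteasome genes lay slightly higher in the runzel trunk and tail samples across the core, the ATPase ring and the lid. Of the 43 tested genes, 39 had a difference above 0 and 4 below, against 50.5% above 0 among all 6136 tested genes. The median difference was 0.20 over the proteasome genes, with quartiles of 0.11 and 0.27, and 0.0027 over all tested genes. Without the filter, 43 of all 48 genes lay above 0, where 55.9% of all probe sets did. The gene at that median, psme3, was 1.15-fold higher, and the largest value at a brightest probe set was 1.41-fold, for psmc5.

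**Figure D1:**
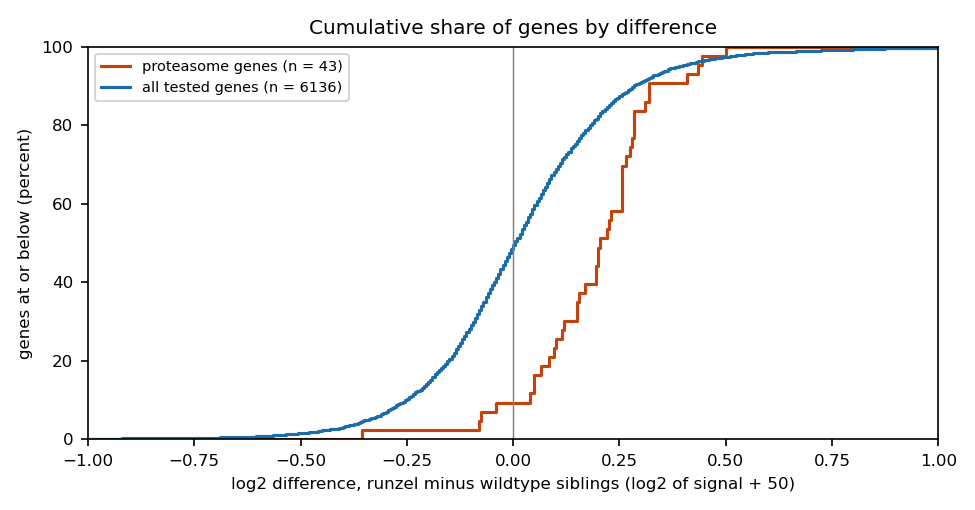
Cumulative share of genes (percent, vertical axis) at or below each log2 difference of runzel minus wildtype siblings (horizontal axis), for 43 proteasome genes and 6136 tested genes. The proteasome curve lies to the right of the curve of all genes over most of the range, with medians of 0.20 and 0.0027, and reaches its end at 0.50, where some of all tested genes lie farther right.

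Almost none of these differences passed after adjustment. In limma without a block, 0 of 49 member probe sets passed at an adjusted p under 0.05 (Benjamini-Hochberg over 9301 probe sets), as did 0% of all probe sets. At an unadjusted p under 0.05, 5 of the 49 were higher, against 2.87% of all probe sets. In limma with the pair as a block, 1 of the 49 passed as higher and none as lower, against 0.72% and 0.473% of all probe sets. At an unadjusted p under 0.05 the paired fit had 15 of 43 genes higher and 0 lower, against 6.52% and 6.55% of tested genes. With a random block for the array number, 0 of 49 passed, against 0.118% of all probe sets as higher and 0.086% as lower. In that fit 15 of the 49 were higher at an unadjusted p under 0.05, against 6.46% of all probe sets. The p-values rest on the spread between these arrays, or between pairs in the paired fit. Limma moderates that spread towards an intensity trend over all tested probe sets. The small number of arrays limits the precision.

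The direction was similar within each pair. Above 0 were 36 of 43 genes in pair 1, 40 in pair 2 and 38 in pair 3, against 50%, 50.8% and 49.5% of tested genes. All 3 pairs were higher for 31 of the 43, against 17.7% of tested genes, and all 3 were lower for 0, against 17.7%. Signals of the groups did not overlap, with runzel above, for 11 of 43, against 5.67% of tested genes. For 0 of 43 did runzel lie wholly below, against 5% of tested genes. Pairs share no array, but members share arrays and scaling, so these counts are not independent observations.

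**Figure D2:**
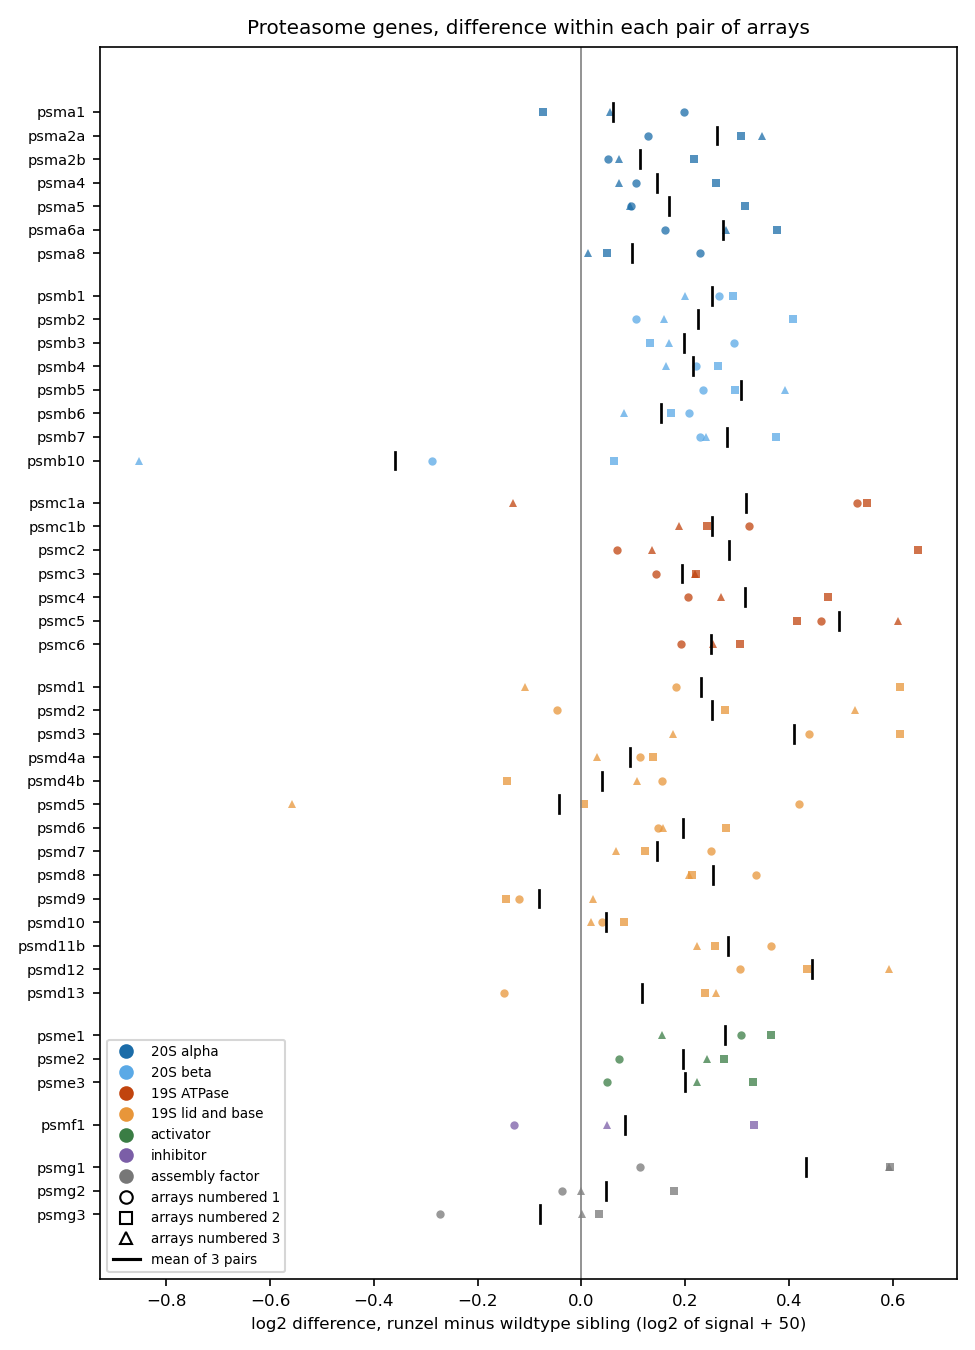
Difference of runzel minus wildtype sibling on the log2(signal + 50) scale (horizontal axis) within each of 3 pairs of arrays, for 43 proteasome genes (rows, at the brightest tested probe set), coloured by subcomplex. Black bars are means of 3 pairs. Most points lie right of 0, and psmb10 lies farthest left, with a mean of -0.36.

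Arrays differed within groups about as much as the groups did. Relative to the wildtype mean, the median of the 43 genes was 0.30, 0.22 and 0.04 on runzel arrays 1, 2 and 3, and 0.14, -0.05 and -0.11 on wildtype arrays 1, 2 and 3. Runzel array 3 thus lay below wildtype array 1, and the array numbered 1 was the highest of each group. Over all tested genes the same medians stayed between -0.01 and 0.02.

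**Figure D3:**
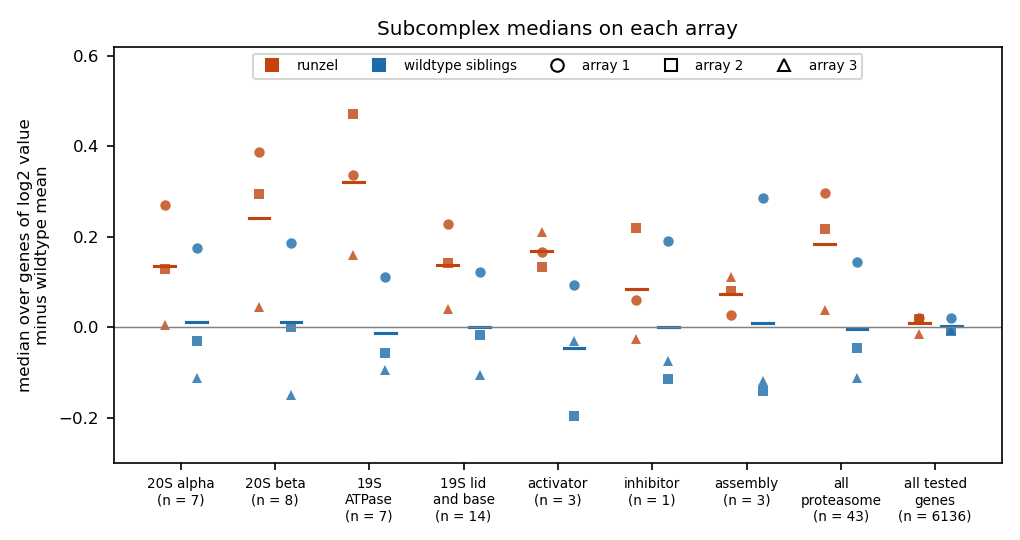
Median over genes of the log2 value minus the wildtype mean of the same probe set (vertical axis), for each subcomplex and for all tested genes, on each array (symbols) with the mean of 3 arrays per group (bars). For all proteasome genes together, runzel arrays stand at 0.30, 0.22 and 0.04 and wildtype arrays at 0.14, -0.05 and -0.11.

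In the alpha ring of the 20S core, whose subunits form the gate of the barrel, 7 of 8 genes were tested and all 7 of these lay above 0, with a median of 0.15 and a range of 0.06 to 0.27. The largest differences were those of psma6a and psma2a. For psma6a the signal was 4871, 5091 and 4015 in runzel, against 4351, 3909 and 3302 in wildtype siblings. Its log2 difference was 0.27 ± 0.108 (SD over 3 pairs) and did not pass in limma (paired adjusted p = 0.338, unpaired 0.977). The groups overlapped, since runzel array 3 lay below wildtype array 1.

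For psma2a the signal was 4623, 5371 and 4813 in runzel, against 4226, 4331 and 3772 in wildtype siblings. Every runzel array lay above every wildtype array here, with a difference of 0.26 ± 0.117 (limma, paired adjusted p = 0.358). Its relative psma2b had a difference of 0.11 ± 0.09 with overlapping groups. The signal of psma5 was 4915, 4963 and 3923 in runzel, against 4597, 3979 and 3671 in wildtype siblings. Here the groups overlapped, and the difference was 0.17 ± 0.127 (paired adjusted p = 0.591).

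The smallest alpha difference was that of psma1, 0.06 ± 0.136. Its signal was 11022, 7961 and 8847 in runzel, against 9599.8, 8381 and 8511 in wildtype siblings, and runzel array 2 was the lowest of the 6. The remaining alpha genes psma4 and psma8 had differences of 0.15 and 0.10, each higher in 3 of 3 pairs. RefSeq lists psma7 as a synonym of psma8. The untested gene psma6l was dim, at 94.2, 74.3 and 332 in runzel, against 360.1, 268 and 208 in wildtype siblings. Its groups overlapped.

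The beta ring carries the active sites, with the caspase-like site in psmb6, the trypsin-like in psmb7 and the chymotrypsin-like in psmb5. Of 12 beta genes 8 were tested, 7 of them above 0, with a median of 0.22 (0.16 without runzel array 1 and 0.36 without runzel array 3). These 7, psmb1 to psmb7, were each higher in 3 of 3 pairs, with differences of 0.15 to 0.31. The 3 catalytic genes among them had differences of 0.31 (psmb5), 0.28 (psmb7) and 0.15 (psmb6).

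The signal of psmb7 was 13179, 12901 and 10782 in runzel, against 11237, 9934 and 9124 in wildtype siblings. Only runzel array 3 and wildtype array 1 overlapped. The difference was 0.28 ± 0.0816 and did not pass in limma (paired adjusted p = 0.223, unpaired 0.977). For psmb5 the signal was 4034, 3662 and 3336 in runzel, against 3423, 2973 and 2530.3 in wildtype siblings, with the same arrays overlapping. Its difference was 0.31 ± 0.0798 (paired adjusted p = 0.297).

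The structural subunit gene psmb1 read 9998, 9323 and 7722 in runzel, against 8315, 7604 and 6718 in wildtype siblings. Runzel array 3 again lay below wildtype array 1, and the difference was 0.25 ± 0.0476 (paired adjusted p = 0.298). Of psmb2, psmb3, psmb4 and psmb6, with differences of 0.22, 0.20, 0.22 and 0.15, only psmb3 had groups that did not overlap. The low spread over pairs of psmb1 and psmb4 stands beside a wide spread over arrays. The psmb4 signal, for example, averaged 7741 ± 1369 on runzel arrays, against 6644 ± 1063 on wildtype sibling arrays (SD of 3).

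The tested beta gene below 0 was psmb10, which in mammals replaces the trypsin-like subunit in the immunoproteasome, a form of the core that favours peptides for antigen presentation. It read 689.5, 739.7 and 97.1 in runzel, against 852.4, 705.8 and 215.5 in wildtype siblings. The arrays numbered 3 were low in both groups, while arrays 1 and 2 of both groups lay between 689.5 and 852.4. The difference of -0.36 ± 0.462 did not pass in limma (paired adjusted p = 0.593). Within pairs 1, 2 and 3 it was -0.29, 0.06 and -0.85. Without runzel array 3 the group difference turned to 0.43, but the low wildtype array 3 was then still included.

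The other immunoproteasome genes were dim. On the RefSeq assembly psmb13a, psmb8a, psmb12 and psmb9a follow each other as neighbouring protein-coding genes, between mhc1uba and tap2a, 2 genes of antigen presentation. In mammals psmb8 and psmb9 encode the inducible chymotrypsin-like and caspase-like positions. All 4 failed the filter. The psmb8a signal was 122, 109 and 141 in runzel, against 114, 52.7 and 81.2 in wildtype siblings. For psmb9a it was 177.4, 134.5 and 180.2 in runzel, against 120.7, 66.7 and 159.4 in wildtype siblings. Both were higher in 3 of 3 pairs at levels under the filter, where log2 differences were not tested.

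For psmb12 the groups overlapped at 323 ± 79.6 in runzel and 254 ± 119 in wildtype siblings. The psmb13a signal was 94.7, 113 and 32.5 in runzel, against 34.9, 39.5 and 25.9 in wildtype siblings, with overlap. Of the interferon and antigen-processing list, 8 of 19 genes were on the array and 2 passed the filter. The peptide-loading gene tapbp.1 had a difference of 0.44 and the class I gene mhc1zba one of -0.38. Neither passed in limma (paired adjusted p = 0.364 and 0.306).

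In the ring of AAA ATPases at the base of the 19S particle, all 7 psmc genes were tested and all 7 lay above 0. Their median of 0.28 was the highest of the subcomplexes with more than 1 gene, and the lowest member stood at 0.19. In 4 of the 7 the groups did not overlap, against 5.67% of tested genes with runzel wholly above. An unadjusted paired p under 0.05 in limma was found for 5 of 7, against 6.52% of tested genes as higher. None passed after adjustment in any of the 3 fits. No test of a difference between subcomplexes was made.

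The largest ATPase difference was that of psmc5, whose signal was 5802, 5246 and 4985 in runzel, against 4199, 3921 and 3249 in wildtype siblings. All 3 runzel arrays exceeded all 3 wildtype arrays. The difference of 0.50 ± 0.102, or 1.41-fold, did not pass in limma (paired adjusted p = 0.0651, unpaired 0.818). The exact permutation test gave 0.1, the smallest p that 3 arrays against 3 allow.

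For psmc4 the signal was 6094, 8147 and 6554 in runzel, against 5279.9, 5848 and 5433 in wildtype siblings, with no overlap. The difference was 0.32 ± 0.141 (paired adjusted p = 0.242). The psmc6 signal was 7246, 8636 and 7189.6 in runzel, against 6338, 6976 and 6020.3 in wildtype siblings. It also did not overlap, with a difference of 0.25 ± 0.0573 (paired adjusted p = 0.319). The lowest of the ring was psmc3 at 10713, 9927 and 10194 in runzel, against 9694, 8509 and 8752 in wildtype siblings. Even here all runzel arrays were higher, by 0.19 ± 0.0441 (paired adjusted p = 0.416).

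The remaining ATPase genes overlapped at their brightest probe sets. The signal of psmc1a was 7218, 6993 and 4757 in runzel, against 4978, 4760.1 and 5216 in wildtype siblings, so that 2 pairs were higher and pair 3 was lower. Its difference was 0.32 ± 0.388. The psmc2 difference of 0.28 ± 0.317 rested mostly on pair 2, at 0.65. Of 3 probe sets of psmc1b, the tested pair gave 0.25 ± 0.0675 and 0.34 ± 0.126, and the remaining dim set gave 0.41 ± 0.411.

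**Figure D4:**
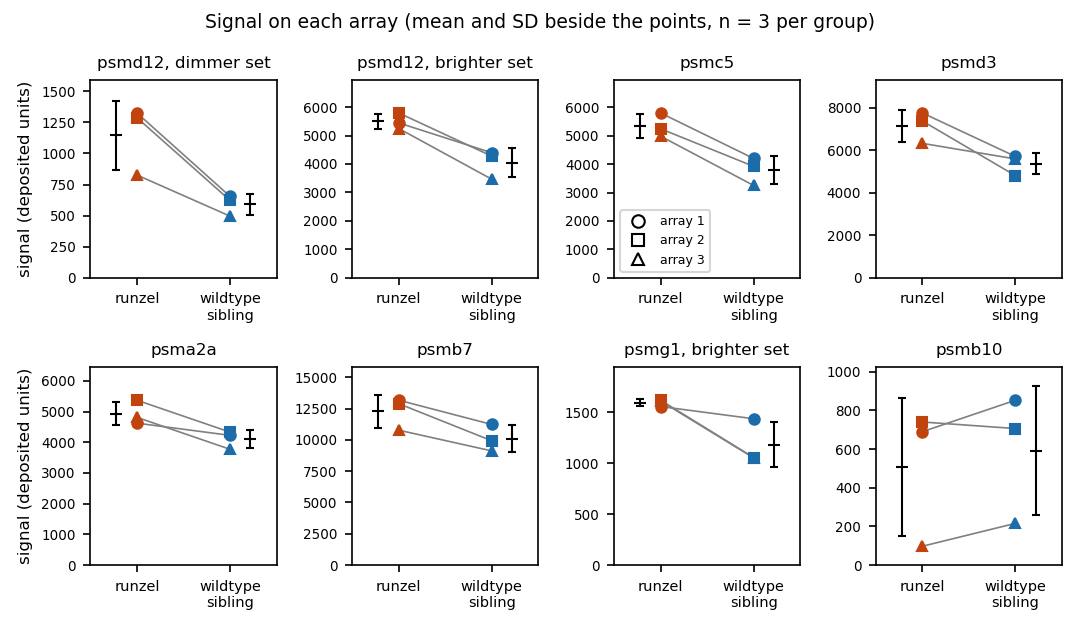
Deposited signal (vertical axis, from 0) of 8 probe sets of proteasome genes on each runzel and wildtype sibling array; grey lines join arrays of the same number, and black marks are mean and SD (n = 3 per group). Runzel lies wholly above wildtype for both psmd12 sets, psmc5, psmd3, psma2a and the brighter psmg1 set, while psmb10 is low on the arrays numbered 3 of both groups. The 8 sets are a selection. Over all 43 genes, runzel lay wholly above for 11, against 5.67% of tested genes. The dimmer psmg1 set, with overlap and a difference of -0.01, is not shown.

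Of the psmd genes, which encode the lid and the rest of the base of the 19S particle, 14 of 14 were tested. Above 0 were 12 and below 0 were 2, with a median of 0.17 (0.11 without wildtype array 3 and 0.24 without runzel array 3). By their known places in the particle, a split made after the values were seen, all 7 lid genes lay above 0 with a median of 0.25. The non-ATPase base genes psmd1, psmd2, psmd4a and psmd4b also lay above 0, with a median of 0.16. The 3 genes whose mammalian products are chaperones of base assembly rather than subunits, psmd5, psmd9 and psmd10, stood at -0.04, -0.08 and 0.05.

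The lid gene psmd12 held the single probe set that passed. At its dimmer probe set the signal was 1326, 1288 and 827 in runzel, against 655, 623 and 496 in wildtype siblings, with no overlap. The difference was 0.88 ± 0.171, or 1.84-fold, and it rose by the paired test of limma (adjusted p = 0.0253). The unpaired adjusted p was 0.81. It also did not pass with the random block (adjusted p = 0.0685) or without the intensity trend (paired adjusted p = 0.128). With 1 pair left out, the paired adjusted p ran between 0.0185, without pair 3, and 0.224. With no filter on dim probe sets, no member passed in the paired fit. The filter at the 60th percentile left this probe set out before the fit, so that setting could not test its call. No other member passed there.

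At the brighter psmd12 probe set the signal was 5443, 5793 and 5247 in runzel, against 4393, 4273 and 3462 in wildtype siblings. The groups did not overlap here either. The difference was 0.44 ± 0.144, or 1.36-fold (paired adjusted p = 0.108, unpaired 0.883). The probe sets of this gene therefore shared a direction and differed in size.

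Another lid gene, psmd3, read 7748.9, 7371.2 and 6319.8 in runzel, against 5702, 4799.6 and 5586 in wildtype siblings, without overlap. Its difference was 0.41 ± 0.22, or 1.33-fold (paired adjusted p = 0.147, unpaired 0.935). The psmd8 signal was 12839, 8756 and 8969 in runzel, against 10153, 7544 and 7758 in wildtype siblings. Arrays numbered 1 were highest in both groups and the groups overlapped, with a difference of 0.25 ± 0.073 (paired adjusted p = 0.293). The other lid genes psmd11b, psmd6, psmd7 and psmd13 had differences of 0.28, 0.19, 0.15 and 0.12. Of these psmd6 had groups that did not overlap, and psmd13 was lower in pair 1, at -0.15.

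In the base, psmd1 and psmd2 encode the large scaffold subunits that dock ubiquitin receptors and shuttles. The difference was 0.25 ± 0.288 for psmd2, and 0.23 ± 0.363 and 0.26 ± 0.461 at the psmd1 probe sets, each gene with 1 pair on the other side of 0. The paralogs psmd4a and psmd4b, whose product in other species is a ubiquitin receptor, had differences of 0.09 ± 0.0562 and 0.04 ± 0.161. None of these passed in limma.

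The lowest psmd gene was psmd9, with 1214.6, 1013.1 and 1092.5 in runzel, against 1324, 1126 and 1074 in wildtype siblings. Its second probe set read 1065.5, 918.1 and 957.1 in runzel, against 1012.6, 1043.2 and 974.1 in wildtype siblings. Both overlapped, with differences of -0.08 ± 0.091 and -0.04 ± 0.124 (paired adjusted p = 0.867 and 0.94). For psmd5 the pairs ran in opposite directions, at 0.42, 0.0059 and -0.56.

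The activators bind the barrel in place of the 19S particle. In mammals psme1 and psme2 form an interferon-inducible ring in the cytosol, and psme3 forms a nuclear one. All 3 were tested, lay above 0 and were higher in 3 of 3 pairs, though psme1 passed the filter only through its runzel level. The psme2 signal was 858, 889 and 887 in runzel, against 814, 726 and 742 in wildtype siblings, without overlap. Its difference was 0.20 ± 0.108 (paired adjusted p = 0.652).

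For psme3 the signal was 2215, 2251 and 2640.0 in runzel, against 2140.0, 1779.7 and 2256 in wildtype siblings, a difference of 0.20 ± 0.142. For psme1 it was 701, 408 and 376 in runzel, against 557, 306 and 332 in wildtype siblings, a difference of 0.28 ± 0.108. In both the groups overlapped, and neither passed (paired adjusted p = 0.564 and 0.651). The inhibitor gene psmf1, whose mammalian product binds and blocks the 20S core in vitro, read 837.5, 940.9 and 785.9 in runzel, against 921.5, 736.4 and 758.1 in wildtype siblings. That difference was 0.08 ± 0.234. Its dimmer probe set read 712.3, 746.5 and 496.5 in runzel, against 692.5, 579.4 and 653.4 in wildtype siblings, a difference of 0.0045 ± 0.353.

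The assembly factors escort the alpha ring and are not part of the finished barrel. All 3 psmg genes were tested, 2 of them above 0, with a median of 0.05. The psmg1 product pairs with that of psmg2 in this task. At its brighter probe set psmg1 read 1559, 1621 and 1614 in runzel, against 1438, 1057 and 1054 in wildtype siblings, with no overlap. The difference was 0.43 ± 0.278 (paired adjusted p = 0.258). At its dimmer set it read 720.4, 650.5 and 657 in runzel, against 802, 527 and 742 in wildtype siblings, a difference of -0.01 ± 0.251. The probe sets of psmg1 thus disagreed in sign.

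For psmg2 the signal was 1426, 1566 and 1600.2 in runzel, against 1464, 1377 and 1601 in wildtype siblings, a difference of 0.05 ± 0.116. The psmg3 signal was 1641, 1448 and 1478 in runzel, against 1992, 1413 and 1476 in wildtype siblings. Its difference of -0.08 ± 0.168 rested on the pair numbered 1. Both overlapped. Of the 6 genes of assembly under psmd and psmg symbols, 3 lay above 0, with a median of 0.0015, while 32 of the 33 tested alpha, beta, ATPase, base and lid subunit genes did, with a median of 0.23. These sets were formed after the values were seen, and the difference between them was not tested.

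The 2 genes set aside were unremarkable. The recombination gene psmc3ip was under the filter at both probe sets, which read between 17.3 and 282. The brightest of 4 probe sets of psme3ip1 had a difference of 0.06 ± 0.186 (paired adjusted p = 0.914), and its tested sets lay on both sides of 0.

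Proteins that work with the proteasome but carry other symbols were read from lists written with earlier results known. Of 11 tested proteasome-associated genes, 8 lay above 0, with a median of 0.08, and 0 passed in the paired limma fit. At an unadjusted paired p under 0.05, 2 of the 11 were higher, against 6.52% of tested genes. The associated zinc-finger gene zfand2a, known in mammals as arsenite-inducible, read 2764.3, 2493.4 and 1954.5 in runzel, against 1803.4, 1587.7 and 1619.9 in wildtype siblings. The groups did not overlap, and the difference was 0.50 ± 0.206 (paired adjusted p = 0.132). The small lid subunit gene sem1 had a difference of 0.28 ± 0.0532, higher in 3 of 3 pairs (paired adjusted p = 0.358). Further members were pomp, which matures the 20S core, at 0.11, the ubiquitin receptor gene adrm1 at 0.07 and the deubiquitinase genes usp14 and uchl5 at 0.14 and 0.10. The 3 genes of this list below 0 are not named, and the lowest stood at -0.09.

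Upstream of the proteasome, 4 of 6 ubiquitin and E1 genes, 19 of 26 E2 genes, and 12 of 14 unfoldase and shuttle genes lay above 0. Their medians were 0.06, 0.07 and 0.12, and 0 of these genes passed in the paired limma fit. Of the 26 E2 genes 5 were higher at an unadjusted paired p under 0.05, against 6.52% of tested genes. At that level with the random block, 2 of the 26 were higher, against 373 of all 6136 tested genes. The E2 genes with the smallest paired p were ube2a at 0.33 ± 0.125 and ube2g1b at 0.27 ± 0.168 (paired adjusted p = 0.188 and 0.347). The shuttle gene rad23ab stood at 0.43 ± 0.302, ubxn1 at 0.24 ± 0.155 and the unfoldase gene vcp at 0.06. The E1 subunit gene uba2 for SUMO stood at 0.21 ± 0.0768 and rps27a, a ubiquitin fusion gene, at -0.10 ± 0.121. The lowest ubiquitin and E1 gene stood at -0.31, with runzel wholly below. That held for 1 of the 6, against 5% of tested genes, and runzel lay wholly above for 0, against 5.67%. Polyubiquitin ubb read 62023 in runzel and 60476 in wildtype siblings at its brighter probe set, a difference of 0.04 ± 0.203.

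Of 9 tested muscle ubiquitin ligase genes, 5 lay above 0 with a median of 0.22. The M-band ligase gene trim55b rose in the paired fit (0.86 ± 0.29, adjusted p = 0.0106). That call was lost with the random block (adjusted p = 0.0756), without a block (0.814) and without the intensity trend (0.184). With 1 pair left out, the paired adjusted p of trim55b in limma ran between 0.00268 and 0.0782. The ligase gene of p53, mdm2, did not pass (0.94 ± 0.759, paired adjusted p = 0.0918). Of 10 tested genes for transcription factors and partners known to act on proteasome or stress genes, 4 lay above 0, with a median of -0.06, and 0 passed, with 0 at an unadjusted paired p under 0.05. The pairs disagreed, with list medians of -0.25, -0.21 and 0.22 in pairs 1, 2 and 3. The highest of these genes stood at 0.23, and the lowest was foxo3b at -0.36 ± 0.535. The gene ngly1, whose product activates the proteasome regulator Nrf1 in other animals, stood at -0.28 ± 0.0189, and nfe2l2a at -0.09.

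Related complexes gave a range of values. The COP9 signalosome shares its architecture with the proteasome lid. Of its 8 tested genes 3 lay above 0 and 5 below, with a median of -0.05 and a lowest value of -0.35. All 3 pairs were higher for 2 of them and lower for 2, against 17.7% of tested genes each way. The genes with the smallest paired p, cops4 and cops3, stood at 0.46 ± 0.269 and 0.37 ± 0.196. Of 13 eIF3 genes 8 lay above 0, with a median of 0.02, with eif3eb at 0.43 ± 0.12 and eif3c at 0.16 ± 0.0812. In the CCT chaperonin, which folds actin and tubulin, 7 of 8 did, with a median of 0.12, led by tcp1 at 0.25 ± 0.186 and cct3 at 0.22 ± 0.0409. All 3 pairs were higher for 6 of these 8 and lower for 0, against 17.7% of tested genes each way. Runzel lay wholly above for 4 of the 8, against 5.67% of tested genes. In the lysosomal and autophagy list 11 of 31 lay above 0, with a median of -0.06. Its protease gene ctsla stood at -0.37 ± 0.219 (paired adjusted p = 0.0971) and map1lc3b, an autophagosome gene, at -0.25 ± 0.0961. None of these 4 lists held a gene that passed in the paired limma fit. The lists were not tested against the proteasome genes.

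**Figure D5:**
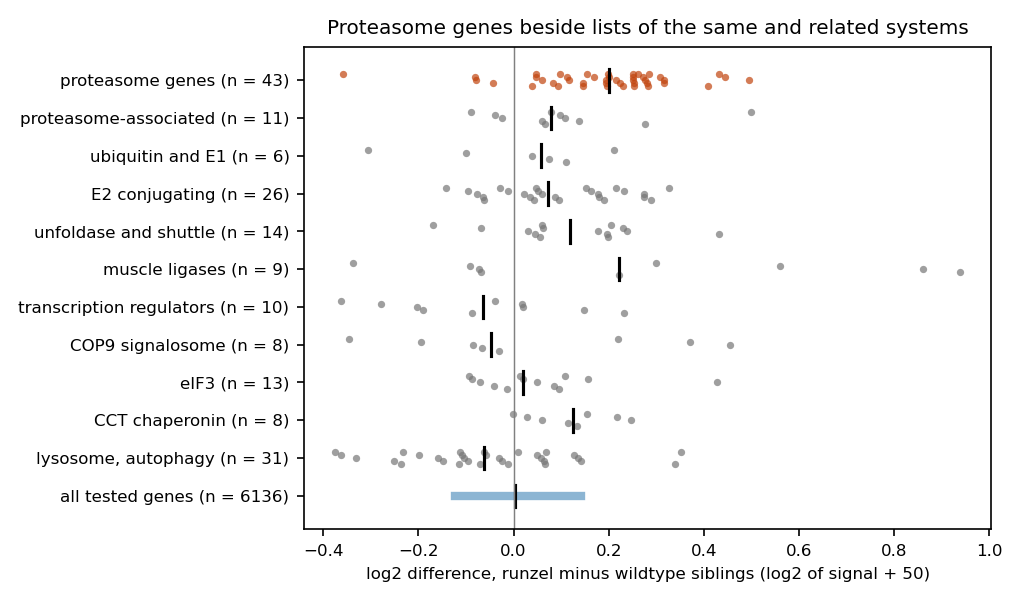
Difference of runzel minus wildtype siblings on the log2(signal + 50) scale (horizontal axis) for tested genes of each list at the brightest probe set (points) with the median (black bar); the bottom row gives the quartile range and median of all 6136 tested genes. Proteasome genes have a median of 0.20, lysosomal and autophagy genes -0.06 and COP9 signalosome genes -0.05.

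Other features of the samples moved with the groups. All 20 skeletal muscle markers on the array passed the filter, 8 of them above 0 and 12 below, with summed signal of 1367500 to 1561800 in runzel and 1399000 to 1681400 in wildtype siblings. Here and below, sums run over all probe sets of the list genes on the array, tested or not. A gene with several probe sets thus counts more than once in them. Of the 20, 7 were higher and 7 lower in all 3 pairs, against 17.7% of tested genes each way. In the paired limma fit the titin gene ttn.2 and the desmin gene desma rose (0.92 and 0.87, adjusted p = 0.00763 and 0.0106) and the actin gene acta1a fell (-0.78, adjusted p = 0.00313). With the random block the adjusted p was 0.201 for ttn.2, 0.213 for desma and 0.0496 for acta1a, and none of these passed without a block. In muscle pooled from whole trunks, fewer cells of a type and less RNA per cell cannot be told apart. Over all 6136 tested genes, 44 passed as higher and 36 as lower in the paired fit. With the random block 17 of all tested genes passed, in either direction. Gut, liver and pancreas markers were below 0 for 20 of 21 tested genes, 6 of which fell in the paired fit and 1 with the random block. Their summed signal was 358450 to 401010 in runzel and 441010 to 477850 in wildtype siblings. Epidermis markers were below 0 for 22 of 26, 6 of which fell in the paired fit and 2 with the random block, with sums of 546000 to 649520 in runzel and 636770 to 735870 in wildtype siblings. Endothelium markers were below 0 for 6 of 7, 2 of which fell in the paired fit and 0 with the random block. Their sums were 16120 to 18770 in runzel and 22472 to 23770 in wildtype siblings. Leukocyte markers were above 0 for 6 of 7, with sums of 18135 to 24490 in runzel and 15817 to 19519 in wildtype siblings. Proliferation markers were above 0 for 7 of 15, and neural markers for 10 of 15. Blood markers were below 0 for 6 of 8, 1 of which fell in the paired fit and 0 with the random block. Notochord, cartilage and connective tissue markers were below 0 for 9 of 12, and 0 passed in either fit. Ratios of 3′ over 5′ control signal, used to read RNA quality, went in opposite directions. The actin control sets are named for acta1, and acta1a is among the genes that fell in the paired fit. For actin the ratio was 2.49 ± 0.398 for runzel against 1.51 ± 0.195 for wildtype siblings, higher in all 3 pairs (SD of 3 arrays; exact permutation test, p = 0.1, its minimum). For GAPDH it was 1.5 ± 0.0374 for runzel against 1.57 ± 0.0391 for wildtype siblings, lower in all 3 pairs (exact permutation p = 0.2). The part of these in the proteasome differences was not tested.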

How the data were processed

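Each array gave 1 deposited value per probe set, a linear signal intensity; per the labels, scanning used a GeneChip Scanner 3000, and GeneChip Operating Software 1.2 was left at its defaults. How probes were summarised, and to what target the authors scaled, the sources used here do not give. Arrays had trimmed means (2%) of 1500.42 to 1500.46, so the authors' scaling was kept. Platform annotation gave 1 symbol to 10795 of 15502 non-control probe sets, several to 135 and none to the remaining 4572. The Entrez identifiers of all 50 genes matched the RefSeq table.

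Log2(signal + 50) was fitted with limma 3.58.1 in R 4.3.3, with an intensity trend, on the 9301 probe sets with a mean at or above the 40th percentile (8.904), without a block. The alternative fit had the replicate number as a block. Deviations from group means correlated at 0.551, 0.389 and 0.526 between arrays of the same number, so the numbers were taken to pair the arrays, from the data and not a label. The members, lists and tests were chosen with earlier results of these data known. All tests are two-sided. Alternatives were other pseudocounts, filters, scalings and blocks, no trend, no _x_at and _s_at probe sets, the mean of probe sets per gene, and leaving out arrays or pairs. Every member is named, and values on every array are given for the 3 smallest paired p and the lowest difference per subcomplex, for probe sets that disagree in sign and for those that passed; further array values were added after they were seen. Of each pathway list, the pair of genes with the smallest paired p and those that passed are named, with others added after their values were seen. Marker lists are given by counts, some of them also by sums, with the muscle markers that passed in the paired fit named after their values were seen. No sequence was printed, and promoter motifs, planned at the outset, are not analysed here.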

Additional observations from a re-analysis of the deposited data

How the results depend on the processing

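Without a block, 0 member probe sets passed under every setting tried on all 6 arrays. With the replicate block, 1 passed, the dimmer psmd12 set, as it did with the block under pseudocounts of 16 and 100, quantile normalization, median centring, and without _x_at and _s_at probe sets. With the block, 0 passed with no filter or without the intensity trend. The filter at the 60th percentile also gave 0, but it left the dimmer psmd12 set out before the fit. With the block and 1 pair left out, 0 to 2 passed, with 2 without pair 3 and 0 without pair 1 or pair 2. Without pair 3 these were the dimmer psmd12 set and psmc1a (limma, paired adjusted p = 0.0451). The omitted pair was the only one in which psmc1a was lower, at -0.13. The median difference of all 43 genes was 0.20, and 0.15 under median centring, where 40.4% of all probe sets lay above 0, against 51.3% as deposited. It was 0.158 to 0.278 with 1 array left out, and highest without runzel array 3. With 1 array left out, the 20S beta median was 0.156 to 0.356, the lid and base median 0.11 to 0.24, and the assembly factor median -0.0021 to 0.103. Median centring gave 0.117 for lid and base and -0.0069 for assembly factors, where psmg2 is the median gene. With pair 2 left out, assembly factors and psmg2 stood at -0.0188 and the inhibitor psmf1 at -0.0408.

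Small differences changed sign. The dimmer psmf1 set was -0.0329 under quantile normalization, -0.0495 under median centring, -0.0966 to 0.175 with 1 array left out, and -0.163 and -0.0122 without pairs 2 and 1. Leaving out 1 array gave psma1 -0.0703 to 0.163, psmb10 -0.904 to 0.434, the psmd9 sets -0.102 to 0.00044 and -0.147 to 0.0046, the dimmer psmg1 set -0.18 to 0.102, psmg2 -0.0021 to 0.103 and psmg3 -0.17 to 0.0709. Leaving out 1 pair gave psma1 -0.0091, the dimmer psmg1 set 0.0581 and 0.0674, psmg3 0.0173 and the dimmer psmd9 set 0.023. The cause was not tested.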
